A study of Mus musculus with 9 samples.

Results

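The 10 genes described here encode lysosomal and endosomal proteases: 9 cathepsins (Ctsb, Ctsc, Ctsd, Ctse, Ctsh, Ctsk, Ctsl, Ctss and Ctsz) and legumain (Lgmn). They were matched by symbol, and all 10 were found among the 19517 genes of the authors' deposited table. The set was chosen from a list of protease genes with earlier results of the same table known, among them the log2 fold changes of Ctse, so the values below are a description of these genes and no test is built on the choice.

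The samples were ovaries from BALB/c nude females, a strain without a thymus, in which MDA-MB-231 cells, a human breast cancer line, had been grown as xenografts. There were 3 libraries in each of 3 groups, 9 in all. UT mice had no treatment, CTX mice had cyclophosphamide, an alkylating chemotherapy drug, and CAU mice had caulerpin, an alkaloid made by green seaweeds. The labels give no dose, time or age, and for CAU they name caulerpin alone, without saying whether cyclophosphamide was given too. Every group, UT included, carried the tumor, so no group stands for a healthy mouse, and these athymic animals lack most T cells. The labels number the libraries as replicate biosamples and do not name the mice, so the deposited p-values reflect only how far these libraries spread, which can include technical spread.

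Cathepsins are made as inactive precursors and are carried to endosomes and lysosomes, where acid and other proteases activate them. Most are cysteine proteases, while cathepsins D and E are aspartic proteases and legumain cuts after asparagine. They digest proteins taken up by the cell, trim the invariant chain that blocks MHC class II molecules, and some act on the extracellular matrix. Macrophages are rich in several of them, and the ovary also uses cathepsin L in follicles near ovulation.

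The measurements are the log2 fold changes, p-values and adjusted p-values of the authors' deposited table, which come from DESeq2 for each pair of groups. A log2 fold change of -1 stands for a fall to 50% of the level and of 1 for a doubling. The table holds no level and no value per library, so the sequencing depth is unknown here, and neither the overlap between libraries nor the ovarian identity of the tissue was examined. Each standard error (SE) is the one that the deposited p-value implies, and 95% intervals were computed from it. Columns were read as the second group over the first, which the headers do not state. Read the other way, all signs would change together. Under this reading Cdkn1a, the p53-induced kinase inhibitor, was at 1.99 in CTX against UT in the authors' deposited table. Genes with an adjusted p under 0.05 are said to have risen or fallen. In whole tissue, fewer cells of a type and less RNA per cell cannot be told apart.

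The genes lie apart in the genome except for a pair. In the RefSeq annotation of GRCm38.p6, the build that the submitters' processing notes name, Ctsk is at chr3:95499210-95509387 and Ctss at chr3:95526786-95556405, both on the plus strand, with 17398 bases and 1 long noncoding RNA gene between them. The main transcript of each has 8 exons. Ctse is at chr1:131638314-131675507 with 10 exons, and its aspartic relative Ctsd at chr7:142375910-142387827 with 9. Ctsc, with 7 exons, is on the same chromosome as Ctsd at chr7:88278024-88315861. Ctsz is at chr2:174427494-174439039, Ctsh at chr9:90054267-90076095, Lgmn at chr12:102394082-102439728, Ctsl at chr13:64361890-64370772 and Ctsb at chr14:63122462-63145923.

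RefSeq promoter sequences of the same build were found for 7 of the 10 members, with 8 start sites. In the 250 bases before a start, the letters GTCACGTG, the core of the CLEAR element that TFEB and its relatives bind in lysosomal genes, occurred at Ctsd and at 1 of the 2 Lgmn starts, on either strand. They occurred in 1.85% of 32851 promoter windows of that length. The Ctss window does not hold them, and a relation between these letters and the fold changes was not tested. The shorter CACGTG, which lies inside those letters, was found at these starts and at Ctsl, whose window lies within its gene model, and in 6.02% of all windows. The sites of Ctsd and Lgmn are shown because they are those found among the members, with the 8 letters (or their reverse complement) in capitals and up to 10 bases on each side. All are on the minus strand of GRCm38.p6, at chr7:142387908-142387935, chr7:142388055-142388077 and chr12:102439126-102439153. The Lgmn start is an internal one of the longest Lgmn model, and the sequence after it was not matched to an Lgmn transcript of the GENCODE annotation.

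Ctsd, 98 bases before the start: gcccgcgtctCACGTGACccgttgaggg
Ctsd, 245 bases before the start: tccccCACGTGACctgtatccag
Lgmn, 51 bases before the start: tggaatgtctGTCACGTGgtccatttta

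The windows of the neighbours Ctss and Ctsk are shown because the genes adjoin and were at -0.59 and -0.08 in CTX against UT, a difference that was not tested. Both are on the plus strand of GRCm38.p6, at chr3:95526536-95526785 and chr3:95498960-95499209. Capitals mark TTTCNNTTT, the core of the interferon-stimulated response element, here as its reverse complement 20 bases before the Ctss start. It was found on either strand in 9.37% of all windows, at Ctss and Ctsl among the members, and not in the Ctsk window. The sequence after this Ctsk start was not matched to a Ctsk transcript of the GENCODE annotation, while that after the Ctss start was matched to one of Ctss. The PU.1 letters GAGGAAGT were found at Ctsc alone among the members and in 2.44% of all windows. These matches are descriptions of letters, not of binding.

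Ctss: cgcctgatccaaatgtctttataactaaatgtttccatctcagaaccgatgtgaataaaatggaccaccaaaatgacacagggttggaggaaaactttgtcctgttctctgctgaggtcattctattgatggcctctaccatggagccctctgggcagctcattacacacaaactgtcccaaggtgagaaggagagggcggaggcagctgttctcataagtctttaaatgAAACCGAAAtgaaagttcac
Ctsk: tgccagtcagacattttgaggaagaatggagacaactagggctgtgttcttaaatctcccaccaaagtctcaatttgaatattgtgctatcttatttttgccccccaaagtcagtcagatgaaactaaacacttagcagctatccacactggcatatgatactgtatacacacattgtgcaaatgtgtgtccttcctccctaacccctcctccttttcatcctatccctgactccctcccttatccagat

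Ctse, an aspartic protease of the endosomes of immune and epithelial cells, was the member with the largest differences. In the authors' deposited table it fell by 2.59 on the log2 scale in CTX against UT (SE 0.72, 95% interval -4.00 to -1.19, adjusted p = 0.0291), which puts CTX at 16.6% of the UT level with an interval of 6.25% to 43.9%. Between CAU and CTX it rose by 2.64 in the authors' deposited table (SE 0.65, interval 1.37 to 3.91, adjusted p = 0.0164), a 6.25-fold difference. CAU against UT was at 0.06 (SE 0.76, adjusted p = 1) per the authors' deposited table. That interval ran from -1.43 to 1.55, or 37.0% to 293% of the UT level, so the table does not show that Ctse in CAU was the same as in UT. These 3 values share groups and are not independent of each other.

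Ctse was measured less precisely than any other member. Its SE in CTX against UT was 0.72, against 0.08 to 0.23 for the other 9 members and a median of 0.21 over all genes, and 24.3% of genes had a larger one. Of the 158 genes called lower in CTX, 8 had a lower log2 fold change than Ctse. Genes with an SE within 0.1 of that of Ctse were mostly negative in this comparison, with a median of -0.48 over 917 genes and 78.8% below 0, and 0.218% of them were as low as Ctse. For CAU against CTX, the 944 genes of like SE had a median of 0.24 and 1.06% were as high as Ctse. The part of this general shift in the Ctse values was not tested.

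**Figure D1:**
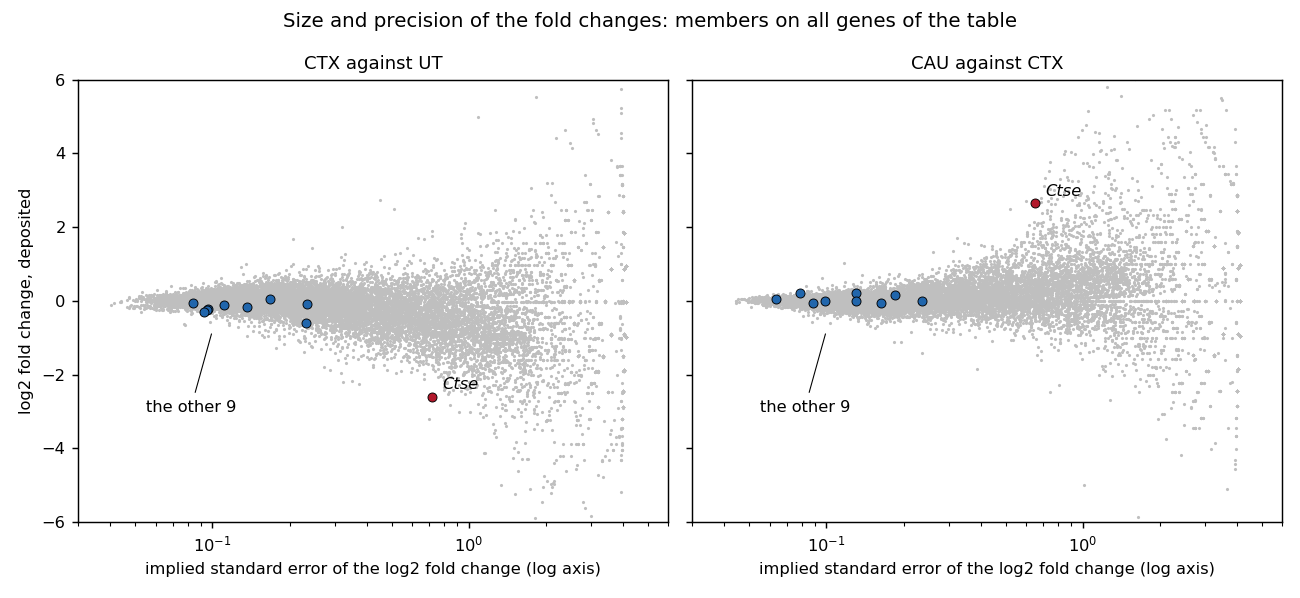
Deposited log2 fold change (vertical) against its implied standard error (horizontal, log axis) for all genes (grey), Ctse (red) and the other 9 members (blue), in CTX against UT and CAU against CTX. Ctse lies at -2.59 and 2.64, near the edge of genes of like precision, while the other 9 lie near 0 at smaller standard errors; 8 and 18 genes beyond 6 in size are not drawn.

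Ctsd, the major aspartic protease of lysosomes, had small values in all 3 comparisons. The authors' deposited table gives -0.21 for Ctsd in CTX against UT (SE 0.10, adjusted p = 0.392), -0.05 in CAU against CTX (SE 0.09, adjusted p = 1) and -0.26 in CAU against UT (SE 0.10, adjusted p = 1). The CAU value has an interval of -0.46 to -0.06, or 72.9% to 95.8% of UT. By the point values CAU lay as far below UT as CTX did, and neither passed the threshold. Of the 50-base windows of the main Ctsd transcript, 37.1% also occur in Gm49369, a predicted gene that overlaps it on the same strand in GENCODE M21. The symbol Gm49369 is absent from the authors' deposited table, and how reads in the shared windows were counted is not known here. No other member's main transcript shared a 50-base window with another gene.

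Lgmn and Ctss came next to Ctse in CTX against UT. Lgmn, which also helps to activate several cathepsins, was at -0.31 (SE 0.09, interval -0.49 to -0.12, adjusted p = 0.0659) per the authors' deposited table, 80.9% of the UT level. Ctss, the cathepsin that trims the invariant chain in antigen-presenting cells, was at -0.59 (SE 0.23, interval -1.05 to -0.14, adjusted p = 0.236) per the authors' deposited table, 66.2% of UT. Neither passed the threshold.

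The values in CAU follow, and the difference between these genes was not tested. Lgmn was at -0.00 against CTX (SE 0.13) and -0.30 against UT (SE 0.15, interval -0.59 to -0.01) per the authors' deposited table, so by its point values CAU lay at the CTX level. Ctss was at 0.17 against CTX (SE 0.19) and -0.41 against UT (SE 0.27) per the authors' deposited table, between the other groups, with both intervals reaching across 0.

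Ctsb and Ctsl, abundant endopeptidases of most cells, had positive values in CAU against CTX. The authors' deposited table puts Ctsl at 0.23 in that comparison (SE 0.08, interval 0.07 to 0.38, adjusted p = 0.329) and Ctsb at 0.22 (SE 0.13, interval -0.03 to 0.48, adjusted p = 1). Their point values against UT lay in different places, a difference that was not tested. Ctsb was at -0.24 in CTX (SE 0.09, interval -0.42 to -0.05, adjusted p = 0.261) and -0.01 in CAU (SE 0.14) per the authors' deposited table. Ctsl was at -0.05 in CTX (SE 0.08) and 0.18 in CAU (SE 0.10, interval -0.01 to 0.37) per the authors' deposited table. None of these values passed.

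The remaining cysteine cathepsins were close to 0 in each comparison. Ctsc, which activates the serine proteases of cytotoxic and myeloid granules, was at -0.17 in CTX against UT (SE 0.14), -0.01 in CAU against CTX (SE 0.10) and -0.17 in CAU against UT (SE 0.15) per the authors' deposited table. Ctsz, a carboxypeptidase of monocytes and macrophages, had the smallest SE of any member in CAU against CTX, 0.06, with a value of 0.05 there in the authors' deposited table, and was at -0.10 in CTX (SE 0.11) and -0.04 in CAU (SE 0.12) against UT. The aminopeptidase gene Ctsh was at 0.04, 0.00 and 0.05 (SE 0.17, 0.24 and 0.23) for CTX against UT, CAU against CTX and CAU against UT in the authors' deposited table. Ctsk, the collagen-cutting cathepsin of osteoclasts and fibroblasts and the neighbour of Ctss, was at -0.08, -0.06 and -0.13 (SE 0.23, 0.16 and 0.24) in the same order in the authors' deposited table.

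Ctsb and Ctsz each overlap a protein-coding gene on the opposite strand, Fdft1 and Nelfcd, and the strand setting is not given in the sources used here. In CTX against UT these overlapping genes, looked up after the members' values were seen, were at -0.01 (Fdft1, SE 0.20) and 0.06 (Nelfcd, SE 0.12) per the authors' deposited table.

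**Figure D2:**
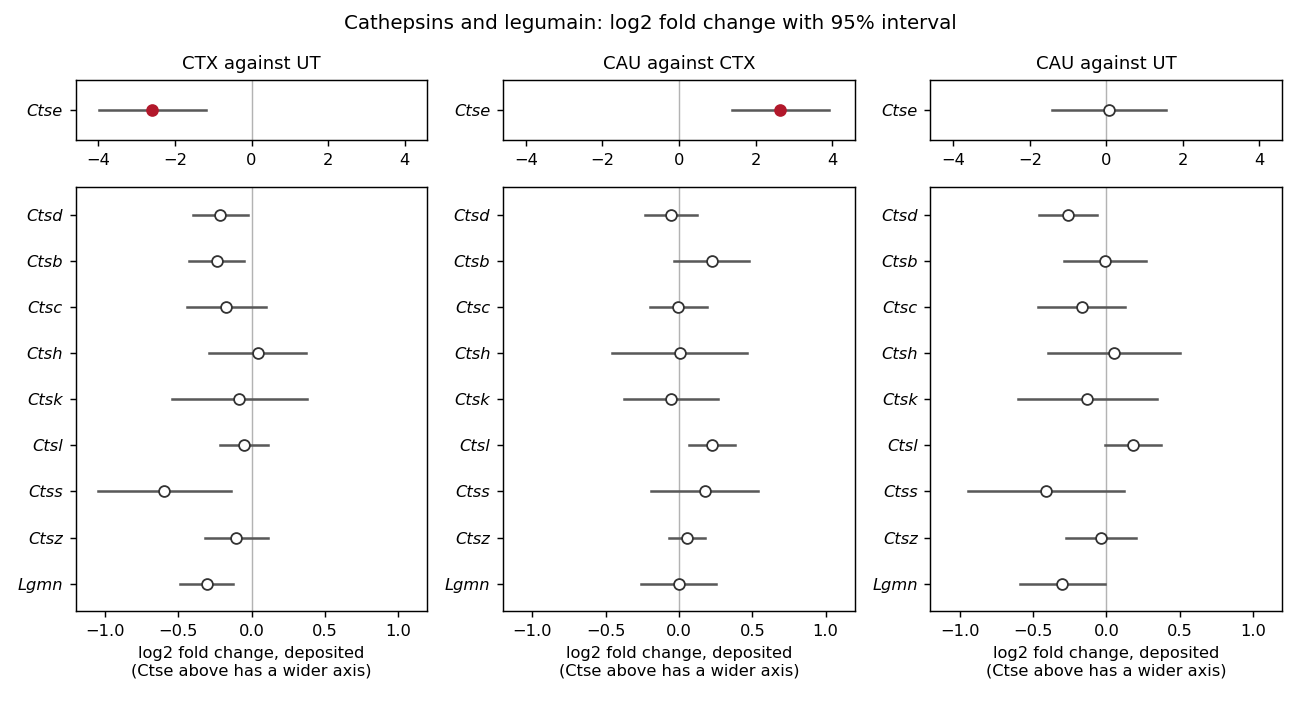
Deposited log2 fold change of each member (circle) with its 95% interval (line) in the 3 comparisons; filled red circles have an adjusted p under 0.05, and Ctse is drawn on a wider axis than the other 9. Ctse is filled at -2.59 in CTX against UT and at 2.64 in CAU against CTX, and no circle is filled in CAU against UT.

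Counted over the set, 1 of 10 members fell in CTX against UT and none rose, where 1.29% of 19260 genes were called in either direction and 0.82% were called lower. With an unadjusted p under 0.05 there were 5 members (Ctse, Lgmn, Ctss, Ctsb and Ctsd, all negative), against 10.2% of all genes. Of the 10 members, 9 had negative values, Ctsh being the exception, against 55.8% of all genes, and the median was -0.19 (-0.17 without Ctse) against -0.03 over all genes. In CAU against CTX, 1 of 10 rose and none fell, where 0.442% of 19245 genes were called and 0.312% were called higher. There, 2 members had an unadjusted p under 0.05 (Ctse and Ctsl) against 5.36% of genes, and the median was 0.03 (0.00 without Ctse) against 0.00 over all genes. In CAU against UT none of 10 passed DESeq2's adjusted p, where 0.0518% of 19302 genes did. An unadjusted p under 0.05 was found for 2 members (Ctsd and Lgmn) against 3.46% of genes, and the median was -0.09 against -0.01. Since the members were chosen with these comparisons known, nothing is read from the shares.

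The intervals limit how large the differences of the uncalled members can have been. In CTX against UT the intervals of 8 of 10 members lay within a 1.5-fold change in either direction, with Ctse and Ctss as the exceptions. For CAU against CTX, 9 of 10 did, all but Ctse. In CAU against UT, 6 of 10 did, and 9 of 10 lay within a 2-fold change. The lowest bound outside Ctse was -1.05, that of Ctss in CTX against UT, and the highest was 0.54, that of Ctss in CAU against CTX. The 3 SEs of each gene were also split as if each group added an error of its own. On that assumption, the largest share came from UT in 7 members, from CAU in 3 (Ctsb, Ctsh and Lgmn) and from CTX in none. The spread between libraries was not seen, so these shares are not measured spreads of the groups.

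Other cathepsins were looked at with the same columns. Of 15 listed, 11 were in the table and 10 had a p-value in CTX against UT, where none passed (median -0.98, median SE 1.09). Only 4 of the 10 had an SE of at most 1, and the median is the value of genes with an SE of 4.08. It therefore says little about the size of any difference. Between CAU and CTX, 1 of 9 rose. It was Napsa, an aspartic protease like Ctse and Ctsd, at 3.56 (SE 0.84, adjusted p = 0.0107), against -3.03 in CTX against UT (SE 1.01, adjusted p = 0.117) and 0.54 in CAU against UT (SE 1.08) per the authors' deposited table. Of the 3 aspartic proteases, Ctse and Napsa thus passed in CAU against CTX and Ctsd did not, and the difference between these genes was not tested. At an unadjusted p under 0.05 there were 2 of 10 in CTX against UT, against 10.2% of all genes. In CAU against CTX there were 2 of 9, against 5.36%. Of the 4 with an SE of at most 1 in CTX against UT, Ctsw was at -2.42 there (SE 0.80, adjusted p = 0.109). It was at 2.19 in CAU against CTX (SE 0.88, adjusted p = 0.557) per the authors' deposited table. Ctsa, Ctso and Ctsf had smaller SEs and smaller values. The carboxypeptidase gene Ctsa was at -0.05 in both CTX against UT (SE 0.08) and CAU against CTX (SE 0.05) per the authors' deposited table. Ctso and Ctsf, named after their values were seen, were at -0.20 (SE 0.17) and 0.14 (SE 0.24) in CTX against UT in the authors' deposited table.

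The listed inhibitors of cysteine cathepsins and legumain included 1 called gene. Cst3, which encodes the secreted cystatin C, fell by 0.37 in CTX against UT (SE 0.08, adjusted p = 0.0023) and was at 0.13 in CAU against CTX (SE 0.08, adjusted p = 1) and -0.22 in CAU against UT (SE 0.07, adjusted p = 0.437) per the authors' deposited table. None of the other 11 measured inhibitors passed in CTX against UT, and the median of the 12 was -0.18. None of 11 passed in CAU against CTX (median 0.06).

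The rest of the lysosome showed no called gene in either of these comparisons. In CTX against UT, none of 23 other hydrolases and cofactors passed (median -0.06), nor any of 14 membrane proteins (median -0.05), 18 proton pump subunits (median -0.04), 9 sorting genes (median 0.06) or 8 MiT/TFE factors and their regulators (median -0.14). At an unadjusted p under 0.05 there were 6 hydrolases, 3 sorting genes and none of the other 3 lists. In CAU against CTX the medians were -0.06, 0.01, 0.07, 0.01 and -0.00 in the same order, and none had an unadjusted p under 0.05. Psap, the precursor of the saposins, was at -0.06 (SE 0.07) in CTX against UT, and Lamp1, the lysosomal membrane glycoprotein, at -0.06 (SE 0.06) per the authors' deposited table. M6pr, the mannose 6-phosphate receptor that carries cathepsins to lysosomes, was at 0.06 (SE 0.06), the proton pump accessory subunit Atp6ap2 at -0.02 (SE 0.08) and Flcn, a regulator of TFEB, at -0.14 (SE 0.08) per the authors' deposited table.

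Cathepsins act on proteins of MHC class II presentation, and several of these genes changed. Of 11 genes of class II presentation, 7 fell in CTX against UT (median -1.80) and 4 rose in CAU against CTX (median 1.12). Cd74, the invariant chain that Ctss trims, fell by 1.87 (SE 0.29, adjusted p = 1.53e-07) and rose by 1.32 in CAU against CTX (SE 0.26, adjusted p = 0.000565) per the authors' deposited table. The class II chain genes H2-Eb1 and H2-Ab1 fell by 2.20 (SE 0.32, adjusted p = 1.93e-08) and 1.80 (SE 0.27, adjusted p = 8.74e-08) in CTX against UT in the authors' deposited table. The 11 values ranged from -2.20 to -0.04.

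Ctsc activates granule proteases, and 1 of 10 of these, Gzma, fell in CTX against UT (median of the 10 -1.91, median SE 1.35). Gzma and Gzmb rose in CAU against CTX (median 0.70). Gzma was at -4.13 (SE 1.15, adjusted p = 0.0300) and 4.63 (SE 0.99, adjusted p = 0.00216), and Gzmb at -4.96 (SE 2.14, adjusted p = 0.336) and 6.03 (SE 1.60, adjusted p = 0.0410) for these comparisons in the authors' deposited table. The 6 genes of endosomal Toll-like receptors and their chaperone, which lysosomal proteases process, had no called gene in either (medians -0.37 and 0.23). Their chaperone gene Unc93b1 was at -0.38 (SE 0.14, adjusted p = 0.192) in CTX against UT in the authors' deposited table. Of 11 genes of the ovulating follicle none passed in either (medians -0.32 and 0.27), with values from -1.34 to 0.45 in CTX against UT. At an unadjusted p under 0.05 there were none in CTX against UT and 2 in CAU against CTX, against 5.36% of genes there. Adamts1, a matrix protease of that stage, was at 0.00 (SE 0.23) in CTX against UT in the authors' deposited table.

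**Figure D3:**
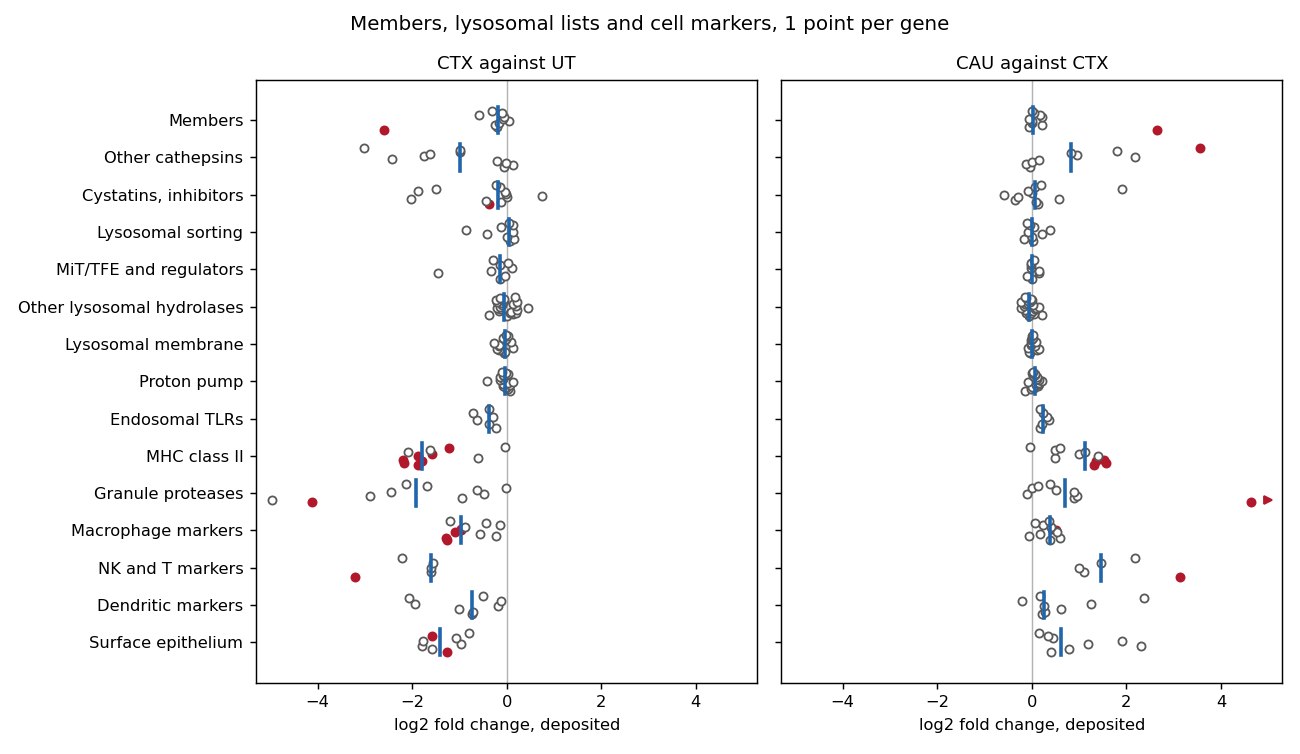
Deposited log2 fold change of each gene (circle) in the members, the lysosomal lists and markers of cell types, in CTX against UT and CAU against CTX; filled red circles have an adjusted p under 0.05, blue bars are list medians, and an arrowhead marks Gzmb, beyond the axis at 6.03. The lysosomal lists lie near 0, with medians from -0.14 to 0.06 in CTX against UT, while MHC class II genes have a median of -1.80 and macrophage markers of -0.96.

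Markers of cells that carry these proteases moved in the same comparisons. All 11 macrophage markers were negative in CTX against UT, 5 of them called (median -0.96, range -1.29 to -0.13), and 2 of 11 rose in CAU against CTX (median 0.39). Csf1r, the macrophage growth factor receptor, fell by 1.29 (SE 0.18, adjusted p = 1.16e-09) and C1qb, a complement subunit, by 0.96 (SE 0.16, adjusted p = 4.13e-06) per the authors' deposited table. Of 5 NK and T cell markers, 1 fell (median -1.60, median SE 0.97) and 1 rose in CAU against CTX (median 1.47, median SE 1.08). This was Ncr1, an NK cell receptor, at -3.21 (SE 0.70, adjusted p = 0.00123) and 3.12 (SE 0.70, adjusted p = 0.0049) per the authors' deposited table.

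Epithelial markers were low in the same comparison. All 8 surface epithelium markers were negative in CTX against UT, 2 of them called (median -1.42), and all 8 were positive in CAU against CTX with none called (median 0.62). Upk3b, a uroplakin of mesothelium, fell by 1.27 (SE 0.32, adjusted p = 0.0111) and Lrrn4 by 1.57 (SE 0.43, adjusted p = 0.0233) per the authors' deposited table. None of 4 oviduct markers (median -1.44), 8 dendritic cell markers (median -0.73), 5 neutrophil markers (median -0.72) or 5 B and plasma cell markers (median -0.87) passed in CTX against UT. The median SEs of these lists there were 1.56, 0.52, 1.09 and 0.80, and no oviduct marker had an SE of at most 1. In CAU against CTX the medians of the same lists were 1.53, 0.26, 2.21 and 0.27, again with none called. The part of these cell types in the values of Ctse, Ctss and Lgmn was not tested.

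By likeness of pattern, 14599 genes were ranked by distance from Ctse over 2 log2 fold changes, CTX and CAU each against UT. These genes had an SE no larger than 1 in both, and genes with a predicted gene's symbol were left out. The nearest was Klrk1, an activating receptor of NK cells, at a distance of 0.32. Ctsw, a cathepsin of cytotoxic lymphocytes, was next at 0.33, then Nkg7, a cytotoxic granule protein, at 0.38, Muc3a, an epithelial mucin, at 0.44 and Topaz1, a germ cell gene, at 0.58. Each of these distances is smaller than the SE of Ctse in CTX against UT (0.72) and in CAU against UT (0.76). The ranking thus lies within the error of Ctse. Klrk1, Nkg7 and Topaz1 passed in no comparison. Ctsw was at -2.42 in CTX against UT (SE 0.80, adjusted p = 0.109) and 2.19 in CAU against CTX (SE 0.88, adjusted p = 0.557) per the authors' deposited table. Muc3a, which rose in CAU against CTX, was at -2.36 (SE 0.97, adjusted p = 0.290) and 2.78 (SE 0.69, adjusted p = 0.0171) per the authors' deposited table. No other member was called, so none has a list of like genes.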

How the data were processed

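The 9 samples were grouped by their titles. Per the submitters' processing notes, HISAT2, Bowtie2, RSEM 1.3.1, DESeq2 1.44.0 and GRCm38.p6 were used, without roles or order; their settings, including strand and filters, are not given here. Per the file headers, the deposited table gives log2 fold changes and DESeq2 p-values and q-values (adjusted p here) for 3 comparisons of all genes. Depth is unknown, so no count test, interval on counts or fit per library was made.

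The q-values lay within 7.74e-05 of a Benjamini-Hochberg adjustment recomputed from the p-values. Blank values, 215 to 272 genes per comparison, included no member. CTX against UT plus CAU against CTX equalled CAU against UT to within 0.01 of a constant in 18772 of 18773 genes. SEs are the absolute log2 fold change over the absolute z of the p-value, assuming an unshrunken Wald test. The 3 SEs of a gene were solved for the error of each group, assuming that the errors of 2 groups add in each comparison. The scripts were tested on simulated data.

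The members and the 11 pathway and 12 marker lists were chosen with earlier results of these data known. All members are named. For the other genes, a rule took up to 3 called genes in CTX against UT of each pathway list and 2 of each marker list. Where a list had none called, the rule took the gene with the smallest SE. It also took the 5 genes nearest to a called member and list genes called in another comparison. Not every gene that the rule took is named in the text. Cdkn1a and genes said to be named after their values were seen lie outside this rule. Positions and promoters are from RefSeq (GRCm38.p6), exon counts and overlaps from GENCODE M21, using the first-numbered transcript. Alternatives were other thresholds, a minimum fold, recentring, rescaled z values and other sets of genes tested. Scripts ran in Python 3.11.15 (scipy 1.17.1, numpy 2.4.6, pandas 2.3.3; figures with matplotlib 3.10.9).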

Additional observations from a re-analysis of the deposited data

How the results depend on the processing

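Of 10 members, the number called in CTX against UT was 0 at an adjusted p under 0.01 and 2 at one under 0.10, where Lgmn joined Ctse. In CAU against CTX it was 0 at an adjusted p under 0.01. With z values scaled to a spread of 1, 1 member (Ctsd, at -0.26) was called in CAU against UT, where the deposited z values had a robust spread of 0.711. The count stayed at 1 (Ctse) in CTX against UT and in CAU against CTX under a 1.5-fold minimum, the median of all genes set to 0, rescaled z values, an SE of at most 1 and genes with all 3 comparisons. Member medians moved by less than the members' median SE under each alternative, including the one added after seeing the data, without Ctse. With the median set to 0, Ctsh in CAU against CTX and Ctsb in CAU against UT, both near 0 and uncalled, changed sign, so that 5 and 6 members rather than 4 and 7 were negative. Over all genes, rescaling z moved the calls from 85 to 237 in CAU against CTX and from 10 to 255 in CAU against UT, a threshold of 0.01 moved them from 249 to 117 in CTX against UT and from 85 to 43 in CAU against CTX, and one of 0.10 moved them to 415 in CTX against UT. With the median set to 0, calls in CTX against UT were 156 higher and 134 lower, against 91 and 158 as deposited. A 1.5-fold minimum left 145 in CTX against UT. Leaving out a replicate, a replicate block, other normalizations and low-count filters were not run, since values per library were not used here. No paired analysis was possible because the columns are comparisons of groups and carry no replicate numbers.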

Other observations

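The direction of the fold changes varied with their precision across the whole table, which touches Ctse and the other imprecise genes named above. In CTX against UT the median log2 fold change was 0.02 over the 9358 genes with an SE under 0.2, where the members other than Ctse, Ctsk and Ctss lie, -0.10 over the 3997 genes from 0.2 to 0.5, -0.42 over the 2201 genes from 0.5 to 1 and -0.67 over the 3704 genes above 1. In CAU against CTX the medians ran the other way, at -0.02, 0.07, 0.27 and 0.38. Of the 25 genes with an SE from 0.5 to 1 that were called in CAU against CTX, Ctse among them, all 25 were higher and none lower. CAU against UT showed smaller medians, 0.02, -0.03, -0.13 and -0.06. The comparisons share the CTX group or the UT group, so these medians are not independent. What sets this pattern was not tested.

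Markers of the follicle and stroma gave other values than the macrophage and epithelial markers. All 7 granulosa cell markers were positive in CTX against UT (median 0.49) and in CAU against UT (median 0.31). Inhbb, an inhibin and activin subunit, rose by 1.00 in CTX against UT (SE 0.21, adjusted p = 0.000378) and fell by 0.47 in CAU against CTX (SE 0.09, adjusted p = 0.000565) per the authors' deposited table. None of 4 oocyte (median 0.10), 6 luteal (median -0.27), 5 stromal (median 0.13) or 4 endothelial markers (median -0.10) passed in CTX against UT. The 5 stromal values ranged from -0.65 to 0.32.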
